A study of Homo sapiens with 12 samples.

Results

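The BAG family of HSP70 co-chaperones was examined in LNCaP cells, an androgen-responsive prostate cancer line, after one of its genes had been edited. The 6 genes BAG1 to BAG6 were taken by their Ensembl identifiers from the 63677 identifiers counted in each sample, and all 6 were detected in all 12 samples. A TALEN, an engineered nuclease, had been directed at the first codon of Bag-1L, the longest protein made from BAG1, and the resulting Bag-1L KO line was compared with a TALEN control line. Both lines were grown in full medium (FM), or were kept for 72 h in charcoal/dextran-treated serum, which lacks steroid hormones, and then given ethanol (EtOH, the vehicle) or 10 nM dihydrotestosterone (DHT, an androgen) for 16 h. This gave 6 groups of 2 biological replicates: Control FM, KO FM, Control EtOH, KO EtOH, Control DHT and KO DHT. KO cells were isolated by serial dilution of single clones, so effects of the edit and of the clone cannot be told apart. The comparisons asked whether BAG1 mRNA differed between the lines and whether any other BAG gene differed with it.

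HSP70 is a chaperone that holds unfolded stretches of its client proteins while it has ADP bound and lets go of them when ATP replaces it. In BAG1 a helical BAG domain grips the ATPase domain of HSP70 and speeds this exchange. The family is named for this domain, but whether each member acts on HSP70 in this way was not examined. The other parts of these proteins differ. BAG1 carries a ubiquitin-like domain that links HSP70 to the proteasome, and its Bag-1L form enters the nucleus. BAG3 joins HSP70 to small heat shock proteins and to autophagy, and is itself induced by proteotoxic stress. BAG2 restrains the ubiquitin ligase CHIP, BAG4 (also called SODD) holds TNF receptor 1 silent, BAG5 carries several BAG domains, and BAG6 guards membrane proteins with exposed hydrophobic segments before they are inserted or degraded.

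The targeted codon lies in exon 1 of BAG1, on the minus strand of chromosome 9 in GRCh37. It opens the coding stretch printed below, which spans positions 33264457 to 33264672. The bases lost in the clone, which the paper describes as this codon and its flanks, are not marked. The coding stretch is shown because it separates the start codon that was targeted from the next one that the study describes as left intact. It runs 5′ to 3′ from the CTG that opens Bag-1L to the next in-frame ATG, which is codon 72 of the Bag-1L reading frame and the start of Bag-1M. Capitals mark these 2 codons, and the letters are those of the reference genome, not of the edited clone.
BAG1, Bag-1L start to Bag-1M start: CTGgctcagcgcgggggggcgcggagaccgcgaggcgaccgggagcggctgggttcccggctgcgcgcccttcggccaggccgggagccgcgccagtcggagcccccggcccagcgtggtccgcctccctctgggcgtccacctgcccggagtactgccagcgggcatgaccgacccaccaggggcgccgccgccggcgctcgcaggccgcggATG
The next in-frame ATG after that is codon 116, so shorter forms can be read from the same mRNA. Counts per gene add all these forms together, so a BAG1 count measures mRNA of the gene and not the Bag-1L protein.

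Library totals over all genes ran from 20826843 to 30354666 counts. Levels are given as CPM, the count of a gene scaled to a common total of counts assigned to genes, and a gene passed the test when DESeq2 gave an adjusted p of at most 0.05 and a fold change of at least 1.5. The luminal genes KLK3 (226.5 to 941.1 CPM) and KRT8 (529.1 to 2145 CPM) were high in every sample, and no sample held more than 4 counts of the basal genes KRT5 or TP63, more than 28 of KRT14, more than 1 of the leukocyte gene PTPRC or more than 5 of the neuroendocrine gene CHGA. The fibroblast collagen gene COL1A1 was counted at 15.2 to 38.5 CPM, and the endothelial gene PECAM1 was not analysed here. The Control EtOH libraries differed more from each other (0.238 log2 units in the median gene) than any other pair (0.076 in KO FM, the closest). Where leaving out either of them changed a call given here, the change is stated. Values without the library are given for BAG genes, and most listed partners are only named. Fewer transcripts per cell and fewer cells with the transcript cannot be told apart in such bulk RNA.

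BAG1 was counted lower in the KO line in every condition. In EtOH the KO samples held 50.6 and 47.0 CPM and the control samples 72.0 and 105.9 CPM. In DHT the KO samples held 43.9 and 44.4 CPM and the control samples 83.6 and 95.7 CPM. In FM the KO samples held 59.5 and 64.0 CPM and the control samples 83.0 and 76.3 CPM. The highest KO sample thus lay below the lowest control sample, on the CPM scale and on that of counts divided by DESeq2 size factors. On the latter scale 1.14% of the 26156 genes kept in the fit showed 6 KO samples below all 6 control samples, and on the CPM scale 0.711% did. In all 12 samples BAG1 mRNA remained present, at 43.9 CPM or more and at 1054 counts or more.

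**Figure D1:**
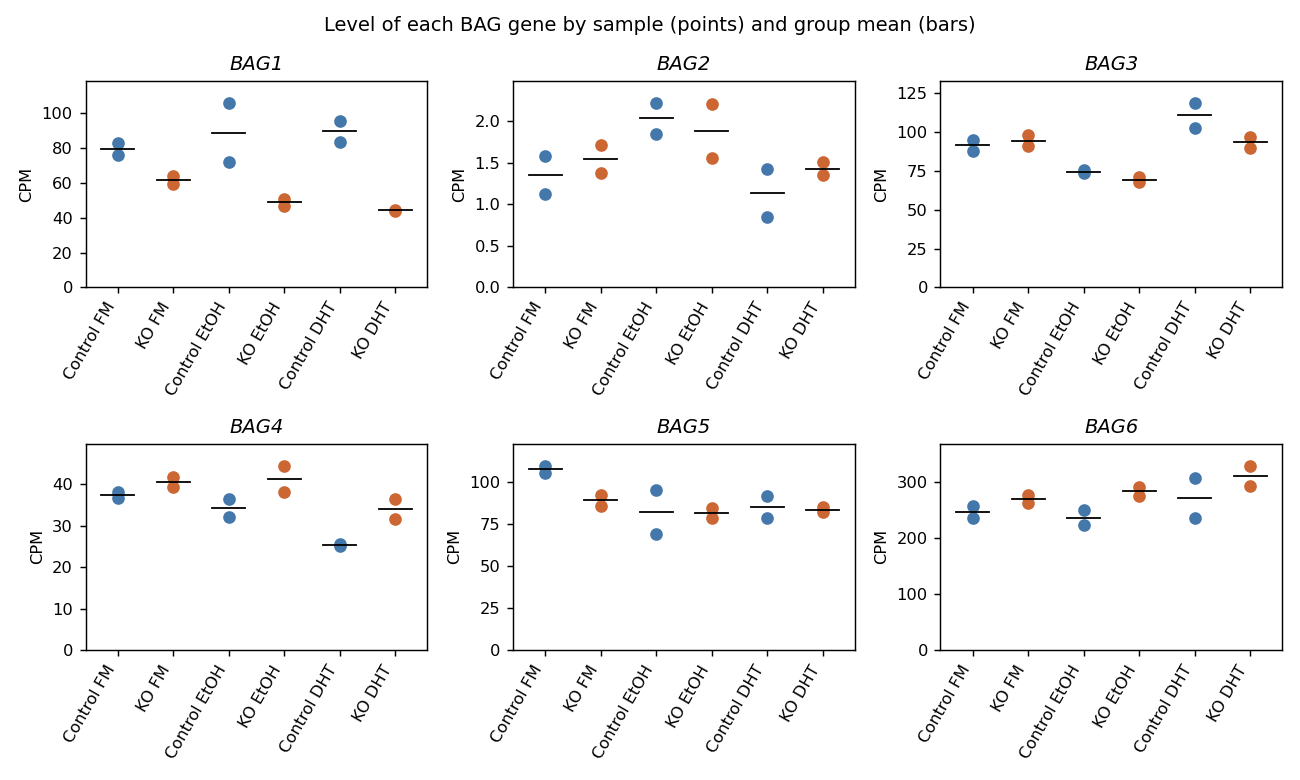
CPM of each BAG gene (vertical axes, each from 0) in the 2 samples of each group, control in blue and KO in orange, with the group mean as a black bar. BAG1 is the gene whose 6 KO samples (43.9 to 64.0 CPM) all sit under the 6 control samples (72.0 to 105.9 CPM), and BAG3 is lowest in the EtOH groups of both lines.

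The BAG1 difference passed the test in EtOH and in DHT. KO cells held 52.1% of the control level in EtOH (log2 fold change -0.94 ± 0.18, SE, adjusted p = 6.35e-06) and 45.3% in DHT (-1.14 ± 0.18, adjusted p = 7.71e-09). In FM they held 74.1% (-0.43 ± 0.18, adjusted p = 0.0682), which did not pass. Averaged over the 3 conditions the level was 55.9% of control (-0.84 ± 0.10, adjusted p = 1.25e-14). The EtOH value depended on the control library used as the reference: it was -1.24 without Control EtOH replicate 1 and -0.57 without replicate 2, the latter with an adjusted p of 0.000739 and a fold change under the minimum of 1.5. Without either of these libraries the FM difference stayed at -0.43, its SE fell from 0.18 to 0.11, and its adjusted p was 0.000711 and 0.000817, still under the fold minimum.

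The size of the BAG1 difference was compared between conditions. It was 0.71 ± 0.25 log2 units smaller in FM than in DHT (95% interval 0.22 to 1.20), with an adjusted p of 0.0947 in the fit of all samples. In a fit of the FM and DHT samples alone, which called 920 genes for this difference in place of 296, the value was 0.71 ± 0.16 with an adjusted p of 0.000611, so this difference passed or missed the threshold depending on the samples that set the spread. Against EtOH the FM difference was 0.51 ± 0.25 log2 units smaller (adjusted p = 0.297), and the DHT difference was 0.20 ± 0.25 log2 units larger (adjusted p = 1). Both turned on the Control EtOH libraries. Without replicate 1 the FM difference was 0.805 log2 units smaller and passed (adjusted p = 7.97e-05), and without replicate 2 it was 0.138 (adjusted p = 1). The DHT difference, KO minus control, was 0.097 without replicate 1 and -0.571 without replicate 2 (adjusted p = 0.977 and 0.0554). KO cells in FM held 1.32-fold the BAG1 level of KO cells in EtOH (95% interval 1.04 to 1.68, adjusted p = 0.0709). In all genes tested, 2.28% passed for the FM against DHT difference, 1.39% for FM against EtOH and 0.408% for DHT against EtOH.

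No BAG gene other than BAG1 passed the test between the lines in any condition or on average. In EtOH 1 of the 6 genes passed, against 5.11% of all genes tested. In DHT 1 of 6 passed, against 7.98% of all genes, and in FM 0 of 6 passed, against 8.01%. On average over conditions 1 of 6 passed, against 7.55%, and at any fold change 4 of 6 had an adjusted p of at most 0.05 (BAG1, BAG3, BAG4 and BAG5), against 28.7% of all genes. The 6 genes were split evenly in sign on average, 3 above and 3 below 0, and the median of all genes tested was -0.016.

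**Figure D2:**
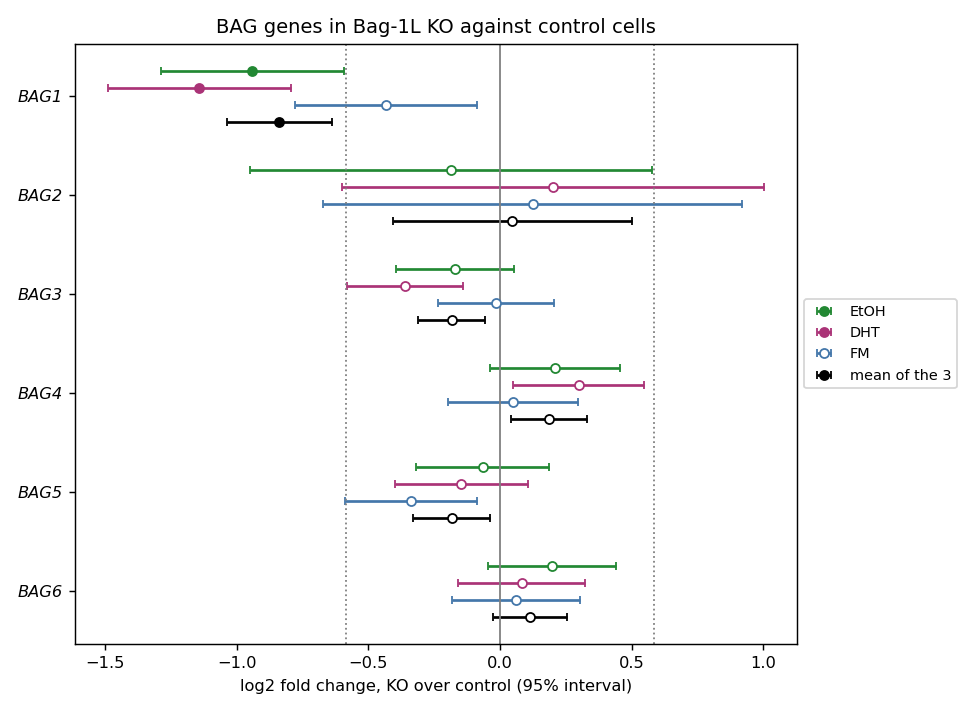
Log2 fold change of KO over control (horizontal axis) for each BAG gene in EtOH, DHT and FM and for the mean of the 3, with 95% intervals. Filled points passed the test, open points did not, and dotted lines mark the fold minimum of 1.5; only BAG1 has filled points (EtOH -0.94, DHT -1.14, mean -0.84).

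BAG4, the silencer of TNF receptor 1, was the member with the largest positive value between the lines. In DHT it was counted at 36.4 and 31.5 CPM in KO and at 25.2 and 25.6 CPM in control cells. In EtOH it stood at 38.2 and 44.4 CPM in KO and at 36.4 and 32.1 CPM in control cells, and in FM at 41.8 and 39.3 CPM in KO and at 36.8 and 38.1 CPM in control cells. The lines did not overlap in any condition on the CPM scale, a pattern shown in this direction by 10.7% of the genes kept. After division by size factors they overlapped in FM. KO over control was 1.23-fold in DHT (95% interval 1.03 to 1.46, adjusted p = 0.0913), 1.16-fold in EtOH (0.975 to 1.37) and 1.04-fold in FM (0.873 to 1.23), and on average 1.14-fold (1.03 to 1.26, adjusted p = 0.0394), under the fold minimum.

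BAG3 and BAG5 had values below 0 on average, each at 88.1% of control. For BAG3, the stress-induced member, the 95% interval was 0.807 to 0.963-fold (adjusted p = 0.0216). Its gap was widest in DHT, where KO samples held 90.0 and 97.1 CPM and control samples 118.6 and 102.9 CPM (77.9% of control, adjusted p = 0.012). In EtOH the KO samples held 71.0 and 67.6 CPM and the control samples 73.3 and 75.7 CPM (adjusted p = 0.434). In FM the samples overlapped (98.2 and 90.7 CPM in KO, 94.7 and 87.9 CPM in control), and the log2 value of -0.02 became 0.002 with TMM scaling.

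BAG5, the member with several BAG domains, differed most in FM, with 92.8 and 85.9 CPM in KO and 105.9 and 109.9 CPM in control cells (79.2% of control, adjusted p = 0.0475, under the fold minimum). In EtOH the BAG5 samples of KO, 78.7 and 84.7 CPM, lay between the control samples of 95.5 and 69.2 CPM. In DHT they were 85.2 and 82.3 CPM in KO and 92.1 and 78.9 CPM in control cells. The 95% interval of the average was fold 0.796 to 0.974 (adjusted p = 0.0479).

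BAG6, the most highly counted member, stood at 223.8 to 307.7 CPM in control and at 262.8 to 329.5 CPM in KO samples. In EtOH the KO samples held 274.9 and 292.4 CPM and the control samples 250.3 and 223.8 CPM, and on average KO over control was 1.08-fold (0.982 to 1.19, adjusted p = 0.244). BAG2, the CHIP inhibitor, was scarce. It was counted 22 to 57 times per sample, or 0.844 to 2.22 CPM, and its average interval of 0.754 to 1.42-fold was the widest of the 6, so changes within it were not detectable at this depth.

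Summed over the family, the other BAG genes held 402.9 to 544.4 CPM in control samples and 465 to 541.9 CPM in KO samples, and these ranges overlapped. Within EtOH the KO samples (465 and 490.6 CPM) lay above the control samples (457.4 and 402.9 CPM). Within FM and within DHT the lines overlapped, and the sum was not tested. To set the genes against each other, counts were divided by length, first by all annotated exons of the gene joined together. The share of BAG1 in the family total of CPM per kb was 9.28 to 15.2% in control and 5.38 to 8.3% in KO samples. With the length of the Ensembl canonical transcript in place of all exons it was 12.6 to 20.1% in control and 7.24 to 11.3% in KO samples. The family total by canonical length was 138.3 to 174 CPM per kb in control and 138.7 to 160.6 CPM per kb in KO samples. BAG1 is one of the 6 summed genes, so these shares restate its own difference on the scale of the family.

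The order of the genes per length was BAG6, BAG3, BAG5, BAG1, BAG4 and BAG2. By all exons their means over the 12 samples were 42.8, 32.5, 17.3, 9.73, 7.38 and 0.235 CPM per kb. BAG3 was above BAG5 and BAG4 above BAG2 in all 12 samples, while BAG6 was above BAG3 in 11 of 12. The places of BAG5 and BAG1 were closer: BAG5 was higher in 11 of 12 samples by all exons, and in all 6 KO but only 3 of 6 control samples by canonical length. BAG1 exceeded BAG4 in 6 of 6 control samples and in 1 of 6 KO samples by all exons, and in all 12 samples by canonical length, so that order turns on the length used. BAG1 has 7073 annotated exonic bases and a canonical transcript of 3820, the widest gap of the family, and which of its exons are used in these cells was not examined.

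The response to DHT was then compared with EtOH within each line. BAG3 rose in control cells, from 73.3 and 75.7 CPM in EtOH to 118.6 and 102.9 CPM in DHT. The rise was 1.62-fold (log2 0.70 ± 0.11, SE, adjusted p = 1.43e-08), and lay between 0.62 and 0.78 without any single library. BAG3 was the 1 of 6 members that passed, against 11.4% of all genes tested. In KO cells BAG3 went from 71.0 and 67.6 to 90.0 and 97.1 CPM, a 1.42-fold difference (log2 0.51 ± 0.11, adjusted p = 0.000139) under the fold minimum. No member passed in KO cells, against 7.68% of all genes. The BAG3 responses of the lines differed by -0.19 ± 0.16 (95% interval -0.50 to 0.12, adjusted p = 1), so no difference between the lines was detected for the member that rose.

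BAG1 did not pass in either line. Its log2 value in DHT over EtOH was 0.13 ± 0.18 in control and -0.07 ± 0.18 in KO cells, and the control value ranged from -0.16 without Control EtOH replicate 1 to 0.50 without replicate 2 (adjusted p = 0.384 and 0.00109), the latter under the fold minimum. BAG6 had 1.25-fold more counts in DHT in control cells (307.7 and 235.8 against 250.3 and 223.8 CPM, adjusted p = 0.0439), a fold under the minimum. The samples overlapped on the CPM scale but not after division by size factors, and the share of all genes like this was not counted. The BAG6 log2 value of 0.326 was 0.158 without Control DHT replicate 1 and 0.476 without Control DHT replicate 2. It was 0.3 without Control EtOH replicate 2. The adjusted p was 0.0825 with edgeR, 0.0583 with DESeq2 and TMM size factors, and 0.395 with DESeq2 on only the samples compared. In KO cells BAG6 gave 293.3 and 329.5 CPM in DHT against 274.9 and 292.4 CPM in EtOH (1.16-fold, adjusted p = 0.324). BAG4 was the member whose DHT samples in control cells, 25.2 and 25.6 CPM, were the lowest it had anywhere (81.3% of EtOH, adjusted p = 0.0847). BAG2 and BAG5 gave adjusted p-values of 0.237 and 0.348 in control and of 0.751 and 0.728 in KO cells. None of the 6 differences in DHT response between the lines passed, against 0.408% of all genes.

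**Figure D3:**
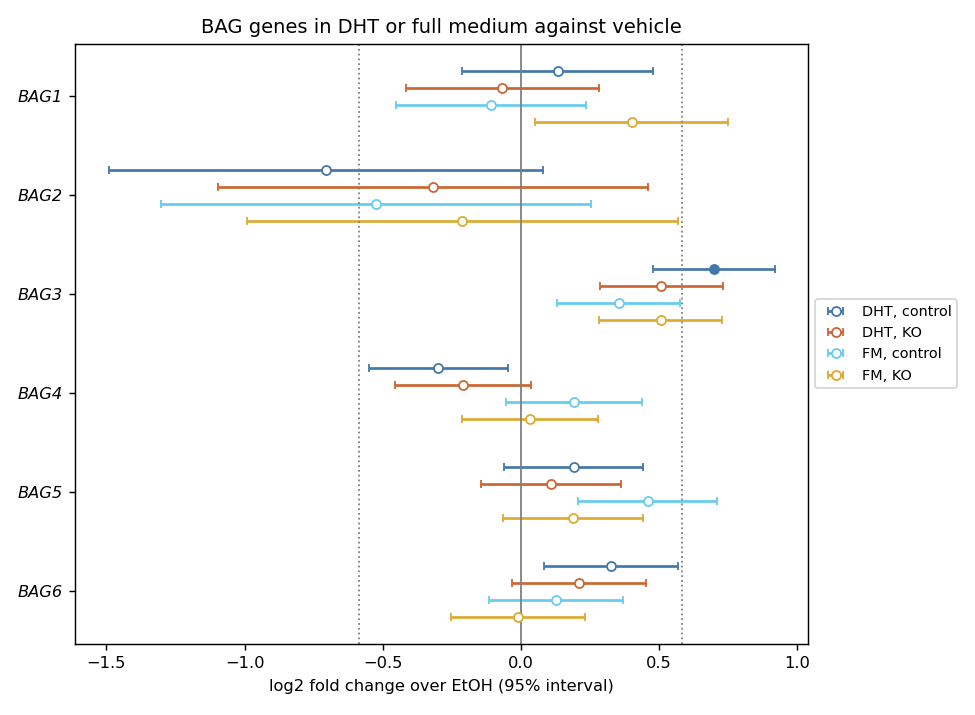
Log2 fold change over EtOH (horizontal axis) of each BAG gene in DHT and in FM, for control and KO cells, with 95% intervals; DHT and FM are set against the same EtOH samples. The filled point is BAG3 in DHT in control cells (0.70); its other 3 values, from 0.35 to 0.51, also have intervals above 0.

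FM was set against the same EtOH samples, so the values share a reference with those of DHT. No member passed in either line, against 21.3% of all genes in control and 19.3% in KO cells. BAG3 was 1.28-fold higher in FM in control (adjusted p = 0.00707) and 1.42-fold higher in KO cells (adjusted p = 6.01e-05), both under the fold minimum. With DESeq2 on the control FM and EtOH samples alone, the adjusted p of BAG3 was 0.118 (log2 0.349). All 4 FM samples of BAG3, at 87.9 to 98.2 CPM, lay above all 4 EtOH samples, at 67.6 to 75.7 CPM, a pattern shown by 12.2% of the genes kept. BAG5 was 1.38-fold higher in FM in control cells (log2 0.46 ± 0.13, adjusted p = 0.00171). This BAG5 value was 0.65 without Control EtOH replicate 1, where it passed, and 0.295 without replicate 2. In KO cells BAG5 was 1.14-fold higher (adjusted p = 0.286), and the responses of the lines differed by -0.27 ± 0.18 (adjusted p = 0.468). In the fit of all samples no difference in FM response between the lines passed for the 5 members DESeq2 tested, against 1.39% of all genes, and BAG2 was too scarce for an adjusted p there. Without Control EtOH replicate 1 that of BAG1 passed (0.805), in a fit that called 2120 genes in place of 180.

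Genes next to BAG1 were examined to see what the same stretch of chromosome 9 showed. CHMP5, a subunit of the membrane-cutting ESCRT machinery, starts 159 bases from the annotated start of BAG1 and is read in the opposite direction. It differed between the lines by -0.08 ± 0.08 log2 units on average (adjusted p = 0.484). Within 500 kb of BAG1 9 genes had a mean normalised count of at least 20. None passed in any condition or on average, against 5.11 to 8.01% of all genes. The average log2 values of these 9 genes ran from -0.43 to 0.04, with 8 of 9 below 0. All 9 were below 0 in DHT and FM, against 7 of 9 in EtOH, where the highest value was 0.465. The median of the 9 averages was -0.116, and that of all genes tested was -0.016. How many of all genes lay below 0 was not counted, so these signs have no background share. Of these 9, B4GALT1, a galactosyltransferase gene, had the lowest adjusted p on average, at -0.31 ± 0.06 (5.29e-07). NFX1 (-0.19 ± 0.06, adjusted p = 0.0118) and NOL6 (-0.19 ± 0.07, adjusted p = 0.0164) were also lower on average, under the fold minimum. At any fold 28.7% of all genes had an adjusted p of at most 0.05. DNAJA1, an HSP40 partner of HSP70, gave -0.04 ± 0.07. BAG1, at -0.84, was thus lower than each of the 9 neighbours on average, although the difference between BAG1 and its neighbours was not itself tested.

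**Figure D4:**
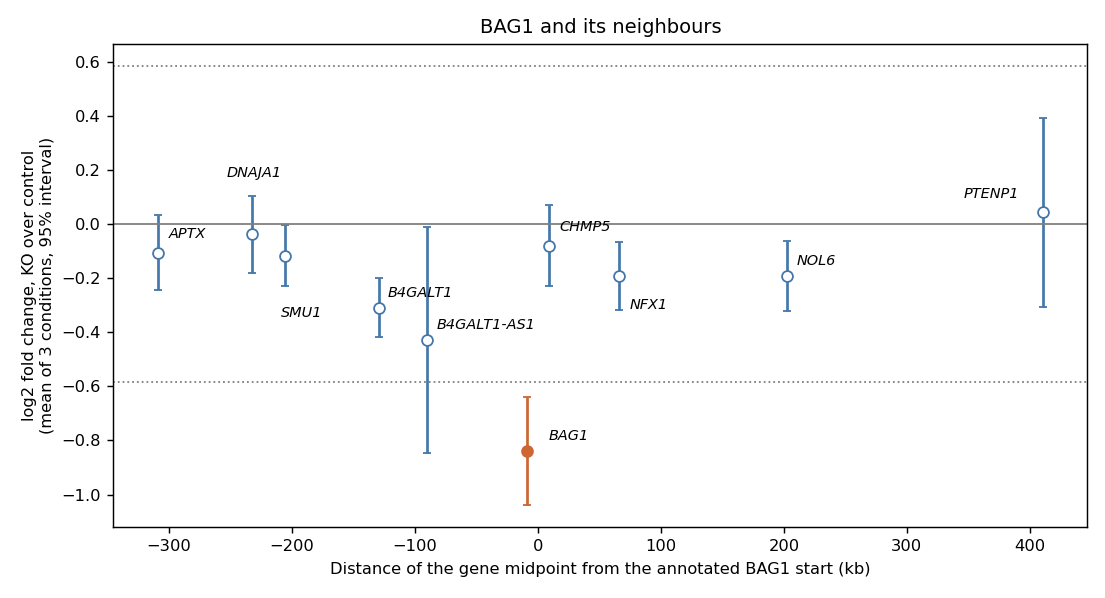
Log2 fold change of KO over control, mean of the 3 conditions with 95% intervals (vertical axis), for BAG1 (orange) and the 9 genes within 500 kb that had a mean normalised count of at least 20 (blue), by distance of the gene midpoint from the start of BAG1 in kb. BAG1 (-0.84) lies below the dotted fold minimum and the neighbours lie between -0.43 and 0.04.

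Around BAG4, whose own average was 0.19, 4 of 5 counted neighbours within 100 kb also had values above 0 in KO cells. These were DDHD2 (0.35 ± 0.07, adjusted p = 1.1e-06), ASH2L (0.32 ± 0.06, 5.36e-07), LSM1 (0.31 ± 0.09, 0.00235) and NSD3 (0.12 ± 0.08, 0.302). PLPP5 had -0.08 ± 0.06 (adjusted p = 0.28), and none passed the fold minimum. DDHD2, ASH2L and LSM1 thus had larger values than BAG4 itself. At any fold 28.7% of all genes had an adjusted p of at most 0.05, and the share of all genes above 0 was not counted. LSM1 overlaps BAG4 on the opposite strand, and 4.17% of the 50-base words of the BAG4 canonical transcript also occur in a transcript of another annotated gene. BAG1, BAG3 and BAG6 shared no such word with any other gene, BAG5 shared 0.28% and BAG2 0.818%. SPINK4 overlaps BAG1, RAB23 overlaps BAG2, KLC1 overlaps BAG5 and APOM overlaps BAG6, each on the opposite strand. SPINK4 held 5 counts over all samples. The strand setting of the counting was not stated, so the split of reads in these overlaps is uncertain.

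The proteins that BAG genes work with were followed in lists of 30 genes. On average over conditions 2 of the 27 tested passed between the lines, both higher in KO cells, which is 7.41% against 7.55% of all genes, and their median log2 value was -0.002 against -0.016. By list these were 1 of 5 HSP70 proteins, 0 of 8 other exchange factors, 1 of 3 degradation partners, 0 of 5 genes of the BAG6 complex, 0 of 4 bound clients and 0 of 2 heat shock factors. By condition 1 of 27 passed in EtOH (3.7% against 5.11% of all genes), 1 of 27 in DHT (3.7% against 7.98%) and 3 of 26 in FM (11.5% against 8.01%). SQSTM1 encodes p62, the autophagy receptor to which BAG3 delivers clients. It was counted at 258 and 249 CPM in KO EtOH against 150 and 149 CPM in Control EtOH, and at 173 and 186 CPM in KO FM against 105 and 91.4 CPM in Control FM. In DHT it was counted at 240 and 273 CPM in KO against 194 and 177 CPM in control cells. SQSTM1 rose 1.63-fold in EtOH (adjusted p = 7.97e-08), 1.74-fold in FM (adjusted p = 3.87e-10) and 1.53-fold on average (adjusted p = 6.28e-19), and its 1.27-fold in DHT (adjusted p = 0.018) was under the fold minimum. On the CPM scale the KO samples of SQSTM1 lay above the control samples in each condition. This pattern was shown in this direction by 10.7% of the genes kept. BAG3 itself was at 88.1% of control on average, and a link between SQSTM1 and BAG3 was not tested.

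Among HSP70 proteins, HSPA8, the constitutive HSP70 and by far the highest counted of them, stood at 96% of control on average (adjusted p = 0.379), at 3080 to 4340 CPM. HSPA1L, a scarce HSP70 at 0.943 to 3.03 CPM, was 1.98-fold higher in KO cells (adjusted p = 1.79e-05). The stress-induced HSPA1B gave 1.19-fold (adjusted p = 0.0144), under the fold minimum, and HSPA1A and HSPA1B are near-identical copies whose reads cannot be split with certainty. HSF1, a regulator of heat shock genes, rose 1.60-fold in FM (adjusted p = 3.3e-06) and gave 1.38-fold on average. The other 8 exchange factors of HSP70 do the same step as BAG1 through other protein folds. None of these 8 passed as higher in any KO comparison, where 5.11 to 8.01% of all genes passed in either direction. Their median log2 value was -0.127 on average over conditions. HYOU1, the exchange factor of the endoplasmic reticulum, fell to 60% of control in DHT (adjusted p = 3.99e-09), from 1140 and 906 CPM in control to 673 and 657 CPM in KO cells.

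**Figure D5:**
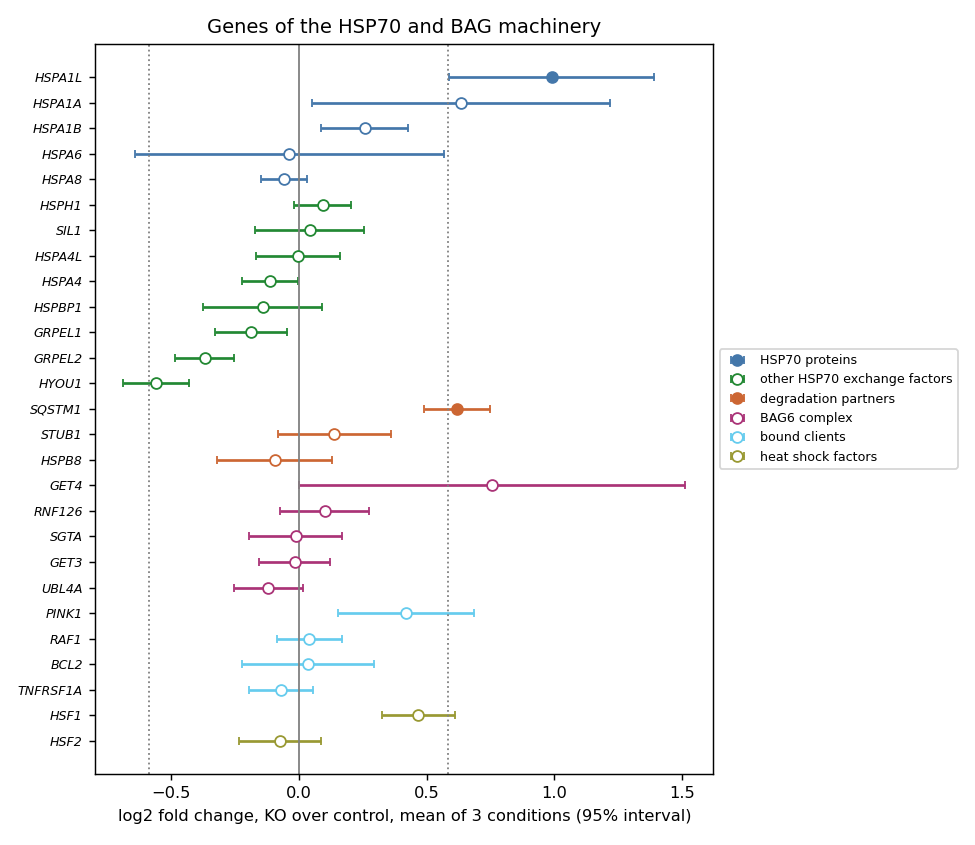
Log2 fold change of KO over control, mean of the 3 conditions with 95% intervals (horizontal axis), for the 27 tested genes of the HSP70 and BAG machinery, coloured by list, filled where the test was passed. The filled points are HSPA1L (0.99) and SQSTM1 (0.62), and dotted lines mark the fold minimum of 1.5.

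None of the genes of the BAG6 complex that were tested (4 of 5 in FM, 5 of 5 elsewhere) passed between the lines in any condition or on average. The share of all genes that passed was 5.11 to 8.01%. Without the fold minimum 1 gene of the complex was higher in KO cells in FM, where 2776 of 15000 genes tested passed. The median log2 value of the complex in FM was 0.309. In DHT over EtOH in control cells 4 of 27 passed (14.8% against 11.4% of all genes). HYOU1 (2.11-fold), HSPH1 (1.61-fold), which encodes an HSP110 exchange factor, and TNFRSF1A (1.61-fold), the receptor that BAG4 silences, rose, and BCL2 (54.8% of EtOH), a survival gene, fell. HYOU1 was the 1 gene of the lists that passed in KO cells (1.86-fold). In FM over EtOH 5 of 27 passed in control (18.5% against 21.3% of all genes) and 4 of 27 in KO cells (14.8% against 19.3%). PINK1, a kinase of mitochondrial quality control, was lower in FM in both lines, at 44.5% of EtOH in control and 42.4% in KO cells, and so was HSPB8, the small heat shock protein that works with BAG3 (53.3% and 56.6%). HSPH1 was higher in FM in both lines (1.85-fold and 1.58-fold). Counts of listed genes also moved with the Control EtOH library left out. In FM over EtOH in control cells 9 passed without replicate 1, when HSPBP1, SIL1, STUB1 and SQSTM1 were added, and 3 without replicate 2, when HSPA1B and GRPEL2 were lost. In DHT over EtOH 4 passed without replicate 1 and 7 without replicate 2, when HSPBP1, HSPA4L and SIL1 were added. Between the lines, HSPBP1 was added in EtOH without replicate 1, and without replicate 2 HYOU1 was added in EtOH (64.3% of control) and on average (66.6%).

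For each BAG gene the genes with the most similar course over the 12 samples were listed, by Pearson correlation of log2(normalised count + 1) among genes with a mean of at least 100. For BAG1 they were DDX51 (r = 0.97), ASNS (0.967) and KANSL2 (0.955), and for BAG3 they were SURF4 (0.978), PSMC4 (0.974) and RUSC1 (0.972). BAG4 was followed by OXCT1 (0.956), AZIN1 (0.956) and SRR (0.937), BAG5 by DYM (0.987), NCOR1 (0.979) and FRRS1 (0.977), and BAG6 by PLEKHM2 (0.977), WIZ (0.964) and KIF1A (0.955). The scarce BAG2 had lower values, led by SATL1 (0.899). The samples share 2 lines and 3 conditions, and the genes were picked as the highest of 11227 compared, or 11228 for BAG2.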

How the data were processed

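Poly(A) RNA of 12 LNCaP samples was sequenced from stranded TruSeq libraries. Per the labels, the authors used CASAVA 1.7, TopHat2 2.0.11 and HTSeq 0.5.3p3 with the human genome GRCh37, and deposited raw read counts per Ensembl gene; the strand setting and Ensembl release are not given in the sources used here. HTSeq sets aside reads that align to several places or overlap several genes; the 5 tallies of such and other unassigned reads held 26.9 to 31.5% of reads and were left out. At these depths 3 counts, the floor of detection, equal 0.0988 to 0.144 CPM.

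Positions and lengths came from GENCODE 44 lifted to GRCh37, which held 55665 of the identifiers. Genes with at least 10 counts in all (26156) entered 1 DESeq2 fit (1.42.0, R 4.3.3) of every sample with 1 term per group, as the study used DESeq2, with Wald tests, unshrunken fold changes and Benjamini-Hochberg adjustment over all genes tested. The fit was tested on simulated data. Alternatives were edgeR's quasi-likelihood test (4.0.16), TMM scaling, other count filters, other sample sets and a replicate block. Replicate pairs differed by more than sampling noise (chi-square per degree of freedom 3.19 to 36.5), so each sample counted once, and p-values cover only the spread between such replicates. The text names the BAG genes, listed partners and cell markers, genes within 500 kb of BAG1 or 100 kb of the others, and the 3 most alike genes. Some listed partners are not reported here. Members and lists were chosen with earlier results of these data known.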

Additional observations from a re-analysis of the deposited data

How the results depend on the processing

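BAG1 was lower in KO cells under every setting run. Its values ran between -1.237 and -0.57 in EtOH as libraries were left out. Without a fold minimum, the averages of BAG3 (-0.182), BAG4 (0.186) and BAG5 (-0.183) passed as well. With edgeR, and with TMM size factors, BAG3 in FM between the lines and BAG6 in FM over EtOH in KO cells each turned to 0.002. With the replicate block the smaller BAG1 difference in FM than in DHT passed (0.699, adjusted p = 0.0491), as it did in the samples compared alone (0.709) and without either Control EtOH replicate (0.708 and 0.709) or Control DHT replicate 1 (0.835); the block changed no other call. The replicate numbers showed no pairing common to all groups: 15 correlations between groups of the same numbers' deviations averaged 0.033 (-0.415 to 0.692). The highest, 0.692, was between Control DHT and Control EtOH, and pairing within these groups alone was not tested. Without Control EtOH replicate 1, BAG5 in FM over EtOH in control cells (0.649) and the BAG1 difference in FM response (0.805) also passed; as libraries were left out the latter ran down to 0.138.

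As libraries were left out, small values that had not passed crossed 0. Between the lines, BAG2 ran from -0.074 to 0.202 on average, -0.453 to 0.051 in EtOH, -0.155 to 0.672 in DHT and -0.108 to 0.405 in FM, BAG3 from -0.07 to 0.031 in FM, BAG5 from -0.231 to 0.122 in EtOH, and BAG6 from -0.069 to 0.249 in DHT. The DHT response of BAG1 in control cells ran from -0.164 to 0.504, and its FM response from -0.403 to 0.264. The FM response in KO cells ran from -0.45 to 0.053 for BAG2, -0.07 to 0.146 for BAG4 and -0.052 to 0.034 for BAG6. The KO minus control difference of the DHT response ran from -0.571 to 0.097 for BAG1, -0.011 to 0.204 for BAG4, -0.267 to 0.086 for BAG5 and -0.265 to 0.054 for BAG6, and that between FM and DHT from -0.551 to 0.279 for BAG2 and -0.188 to 0.127 for BAG6. The cause was not tested.

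Over all genes, edgeR called 24 in place of 55 for the DHT response difference, 65 in place of 180 for that of FM, and 91 in place of 296 for FM against DHT; in the other 8 comparisons it called more, within 1.5 times (such as 1034 in place of 844 between the lines in EtOH). With only the samples compared, 506 in place of 844 passed between the lines in EtOH, 1324 in place of 2001 for DHT in control cells, 19 in place of 55 for the DHT response difference, and 920 in place of 296 for FM against DHT. The length of the canonical transcript was an alternative chosen after seeing the data; it moved the mean level of BAG1 from 9.73 to 18 CPM per kb. With 22 to 57 counts per sample, depth limits BAG2.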
